A study of Caenorhabditis elegans with 245 samples.

Results

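The tRNA genes of lysine, arginine and histidine were taken from 4 deposited tables of small RNA counts from Caenorhabditis elegans, and their fragments were followed through whole males, purified sperm, virgin females and animals mutant for the nuclease RNST-2. A gene was a member if its row was of class tRNA and its label ended in an anticodon of Lys, Arg or His. This rule gave 190 of the 820 tRNA genes in the tables, namely 85 Lys, 54 Arg and 51 His genes, and it used no measured value. They carry 10 of the 60 anticodon labels. Counts were summed over the genes of each anticodon, giving Lys-CTT (67 genes), Lys-TTT (18), Arg-ACG (21), Arg-TCG (15), Arg-TCT (9), Arg-CCT (5), Arg-CCG (2), Arg-GCG (2), His-GTG (26) and His-ATG (25).

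The 45 libraries of RNA selected at 18 to 40 nt fall into 10 groups, and every animal in them carries fog-2, a mutation that turns hermaphrodites into females and leaves spermatogenesis of males intact. Animals with fog-2 alone, called WT here, gave 4 libraries of whole males and 4 of purified sperm. The catalytic allele of rnst-2, pen4 (cat), changes a histidine predicted to act in catalysis, in a GFP- and FLAG-tagged RNST-2. It was homozygous in 6 libraries of males (cat/cat), in 3 more of males listed with the sperm, and in 4 of sperm. The labels do not say whether those 3 were prepared together with the sperm. In 5 libraries of males the allele was heterozygous over the balancer tmc16 (cat/+). The deletion allele pen1 (∆, written del in the plots), a frameshift, was homozygous in 6 libraries of males and 4 of females (∆/∆) and heterozygous over tmc16 in 5 of males and 4 of females (∆/+). The mutant males and females were picked by hand as young adults a day after the last larval stage, about 50 crossed progeny to a library, and sperm came from large cultures of mostly males. Each allele is 1 line. The study calls its libraries biological replicates, while the labels do not say which cultures or crosses they came from, and p-values measure the spread between these libraries.

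A tRNA reads a codon of the mRNA with its anticodon and delivers the matching amino acid, which an aminoacyl-tRNA synthetase has loaded onto it. Lysine, arginine and histidine are the amino acids with basic side chains. Lysine and arginine are abundant in histones, and arginine in the protamines that pack the sperm DNA of many animals. Mature tRNAs are longer than the RNAs selected here, so the reads are pieces of tRNAs, called tRNA-derived RNAs (tDRs). RNase T2 enzymes such as RNST-2 cut single-stranded RNA without a divalent metal, act in lysosomes and, in yeast and other organisms, cut tRNAs within their loops. Small RNA libraries of whole worms mix the RNAs of all tissues. Fewer cells of a type and less RNA per cell therefore cannot be told apart.

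Nematode genomes hold many tRNA genes of identical sequence, so that a read can match many genes at once. The RefSeq annotation of WBcel235 holds 110 genes for the tRNAs of the 3 amino acids, and for 3 of these genes the anticodon was not read. The others stand in 32 different sequences, with 31 Lys-CTT genes in 7 sequences, 15 Lys-TTT genes in 2, 19 Arg-ACG genes in 5, 9 Arg-TCG genes in 4, 8 Arg-TCT genes in 3, 4 Arg-CCT genes in 3, 2 Arg-CCG genes in 2, 1 Arg-GCG gene and 18 His-GTG genes in 5. Among the genes with an anticodon read, none reads His with the anticodon ATG. The tables list more genes under most labels than the annotation does, and the annotation has 209 further tRNA pseudogenes of any amino acid. Row names were not joined to annotated genes. The sequences below are whole tRNA genes on WBcel235, printed as DNA with the anticodon in capitals. They are the His-GTG pair and the Arg-TCG version whose sets of genes are compared further on, and a gene of each of 3 other arginine labels that were lower in females.
His-GTG version 1: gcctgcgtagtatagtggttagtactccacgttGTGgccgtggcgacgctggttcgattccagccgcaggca
His-GTG version 2: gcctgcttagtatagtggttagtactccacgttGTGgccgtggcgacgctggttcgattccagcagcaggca
Arg-TCG version 2: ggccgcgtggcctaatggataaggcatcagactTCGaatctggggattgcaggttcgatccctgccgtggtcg
Arg-CCT version 1: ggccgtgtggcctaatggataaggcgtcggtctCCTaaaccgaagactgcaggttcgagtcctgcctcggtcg
Arg-CCG version 1: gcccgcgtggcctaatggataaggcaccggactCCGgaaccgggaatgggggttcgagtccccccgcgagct
Arg-GCG version 1: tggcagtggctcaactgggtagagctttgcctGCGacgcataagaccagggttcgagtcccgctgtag

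His-GTG version 1 stands in 11 identical copies, of which the one printed, W09G10.t1 at chrII:3521487-3521558 on the minus strand, lies in an intron of col-72 on the same strand. Version 2 stands in 4 copies, and the printed Y57G11C.t1 at chrIV:14889022-14889093 on the minus strand lies in an intron of eps-8 on the other strand. The pair of versions differ at G7T and C65A, counted from 1 at the 5′ end with the base of version 1 first. Arg-TCG version 2 has 3 copies, with F49E7.t3 at chrX:1089173-1089245 on the minus strand, outside protein-coding genes. Arg-CCT version 1 has 2 copies, with F29C4.t1 at chrIV:143982-144054 on the plus strand, in an intron of col-99 on the other strand. The single copies of Arg-CCG version 1, ZK380.t1 at chrX:1629881-1629952, and of Arg-GCG version 1, W05B2.t1 at chrIII:10961850-10961917, both lie on the minus strand, the latter in an intron of W05B2.2. These genes are a single exon each.

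Values are given as counts per 1000000 counts (CPM). Library totals ran from 4976236 to 51191372 counts, and the counts on all tRNA genes from 121284 to 6837365 per library. rRNA fragments took 58.7% to 68.3% of the counts in cat/cat sperm against 15.9% to 24.5% in WT sperm, so that comparisons with cat/cat sperm used CPM of the counts without rRNA. Comparisons with females used CPM without rRNA and piRNA, and all others CPM of all counts. Summed mRNA fragments of 17 sperm genes stood at 86.9 to 140 CPM of all counts in WT sperm, 22.6 to 28.5 in WT males and 0 to 1.59 in females, where 5 of the 17 were at 0 in every ∆/+ library and 7 in every ∆/∆ library. The 6 soma miRNAs stood at 62687 to 104105 in WT males and 9909 to 18543 in WT sperm. Fragments of the 6 vitellogenin genes, made in the intestine of females, were at 45.4 to 171 in WT sperm and 185 to 300 in cat/cat sperm against 2.11 to 8.53 in WT males. The oocyte and embryo miRNAs mir-35 to mir-42 went the other way, at 82.5 to 318 in WT sperm and 673 to 1494 in WT males. The part of these RNAs in the results was not tested. Libraries that stood apart were cat/cat sperm replicate 3, where the oocyte and embryo miRNAs mir-35 to mir-42 reached 744 against 259 to 349 in the others, cat/+ male replicate 4, which had the fewest RNAs above 0 (12310 against up to 66992), ∆/+ male replicate 1 for Arg-CCG and ∆/∆ female replicate 2 for both Lys labels. Values without each are given where they bear on a result.

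**Figure D1:**
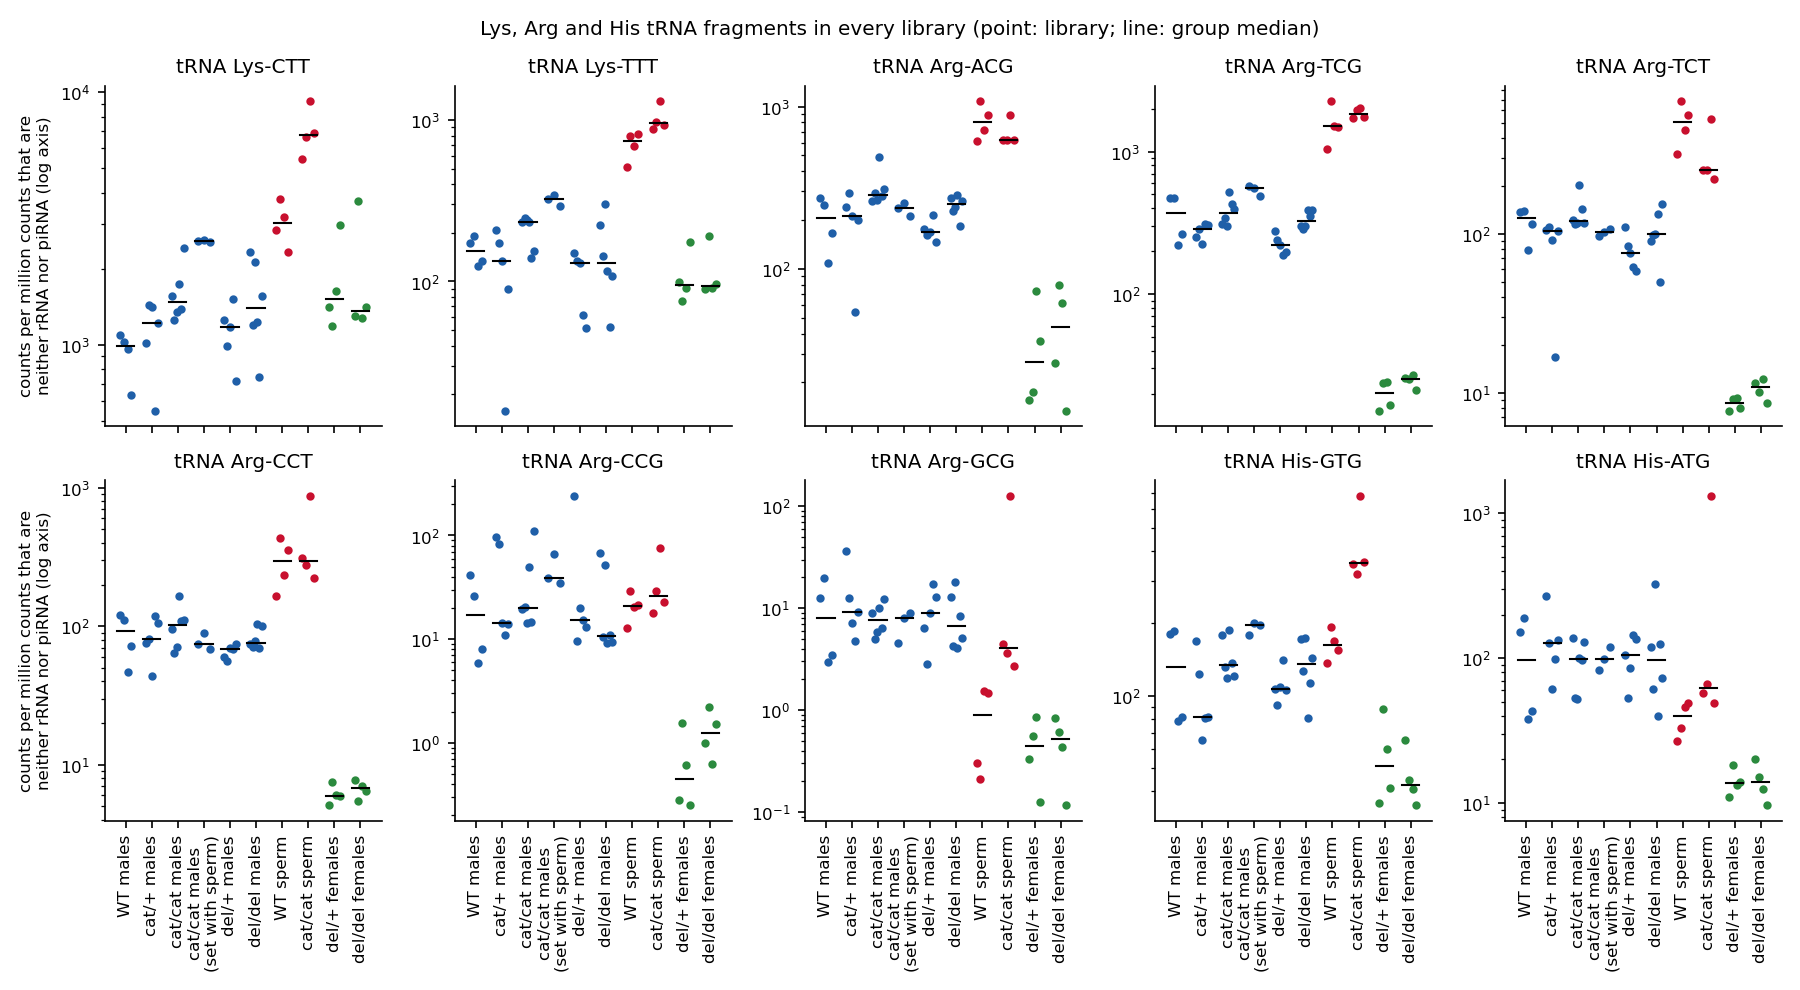
CPM of the counts that are neither rRNA nor piRNA (log axis) of the 10 anticodon labels in each of the 45 libraries, 1 panel a label. Points are libraries (blue males, red sperm, green females) and the line is the group median; the Arg panels drop in both female groups while the Lys-CTT panel does not, and 1 cat/cat sperm library stands far above the others of its group in the Arg-GCG and His-ATG panels.

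Purified sperm was first set against whole males of the WT strain, the comparison that asks which fragments accumulate in sperm. Fragments of both lysine tRNAs and of 4 arginine labels were higher in sperm by 2.64- to 3.69-fold in CPM of all counts, whereas those of Arg-GCG and His-ATG were lower and those of Arg-CCG and His-GTG did not pass the test. Gly-GCC and Glu-CTC, the tRNAs best known for fragments in animal sperm, were higher by 1.27 and 1.82 on the log2 scale. Thus 6 of the 10 labels rose where 31.1% of all 24428 RNAs tested did, and 2 fell where 33.6% did. The median log2 difference of the 10 was 1.44, against 1.69 over the 48 other anticodon labels tested (32 higher and 7 lower) and −0.13 over all RNAs. The rise of the 6 is a rise in CPM of all counts. Against the counts on tRNA genes alone each of the 6 was lower, from −0.61 for Lys-CTT, which passed, to −0.14 for Lys-TTT, and the median of all RNAs moved from −0.13 to −2.13.

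Lys-CTT, the tRNA for the codon AAG, stood at 1016, 951, 926 and 612 CPM in WT males and at 2138, 2845, 2363 and 1922 in WT sperm. Every sperm library lay above every male library, and the log2 difference was 1.40 ± 0.17 (SE; edgeR adjusted p = 1.3e-05). Lys-TTT, which reads AAA, was at 161, 178, 121 and 130 in males and at 382, 604, 513 and 672 in sperm, a log2 difference of 1.88 ± 0.19 (edgeR adjusted p = 3.6e-06), also without overlap. Lys-TTT had the greatest rise of the 10 labels.

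The arginine labels divided by anticodon. Arg-ACG, whose first anticodon base is edited to inosine in eukaryotes so that it reads several CGN codons, was at 253, 229, 105 and 160 in males and 458, 812, 534 and 731 in sperm (log2 difference 1.76 ± 0.26, edgeR adjusted p = 6.1e-05). Arg-TCG, for CGA, rose from 440, 440, 212 and 253 to 782, 1699, 1124 and 1226 (1.85 ± 0.27, edgeR adjusted p = 5.2e-05). Arg-TCT and Arg-CCT, for AGA and AGG, had log2 differences of 1.80 ± 0.24 (edgeR adjusted p = 2.6e-05) and 1.47 ± 0.32 (edgeR adjusted p = 0.0013). In all of these the lowest sperm library lay above the highest male library.

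Fragments of the arginine labels with 2 genes each behaved otherwise. Arg-GCG, for CGC, was at 11.8, 18.3, 2.86 and 3.35 CPM in males and at 0.227, 0.159, 1.13 and 1.22 in sperm, where the counts were 5, 4, 58 and 27. It was 12.6-fold lower in sperm (log2 −3.66 ± 0.69, edgeR adjusted p = 0.000407). Its counts met the filter for testing through the males alone. Arg-CCG, for CGG, was at 38.5, 24.1, 5.72 and 7.82 in males and 9.66, 21.9, 15.1 and 17.6 in sperm. The groups overlapped and the log2 difference was −0.24 ± 0.48 (edgeR adjusted p = 0.679).

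The histidine labels did not rise in sperm. His-GTG, the tRNA for both histidine codons, was at 168, 173, 75.4 and 78.7 in males and 102, 146, 125 and 128 in sperm (log2 0.02 ± 0.26, edgeR adjusted p = 0.956). Sperm lay within the range of the males, which themselves split into a higher and a lower pair. His-ATG, the label that no annotated gene was read to carry, went from 141.6, 175, 36.4 and 41.4 in males to 20.2, 25.02, 34.2 and 40.3 in sperm. It was 3.29-fold lower (log2 −1.72 ± 0.44, edgeR adjusted p = 0.00398), although the lowest male library lies within the sperm range. With the replicate number as a block this call was lost (−1.44, edgeR adjusted p = 0.0551).

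**Figure D2:**
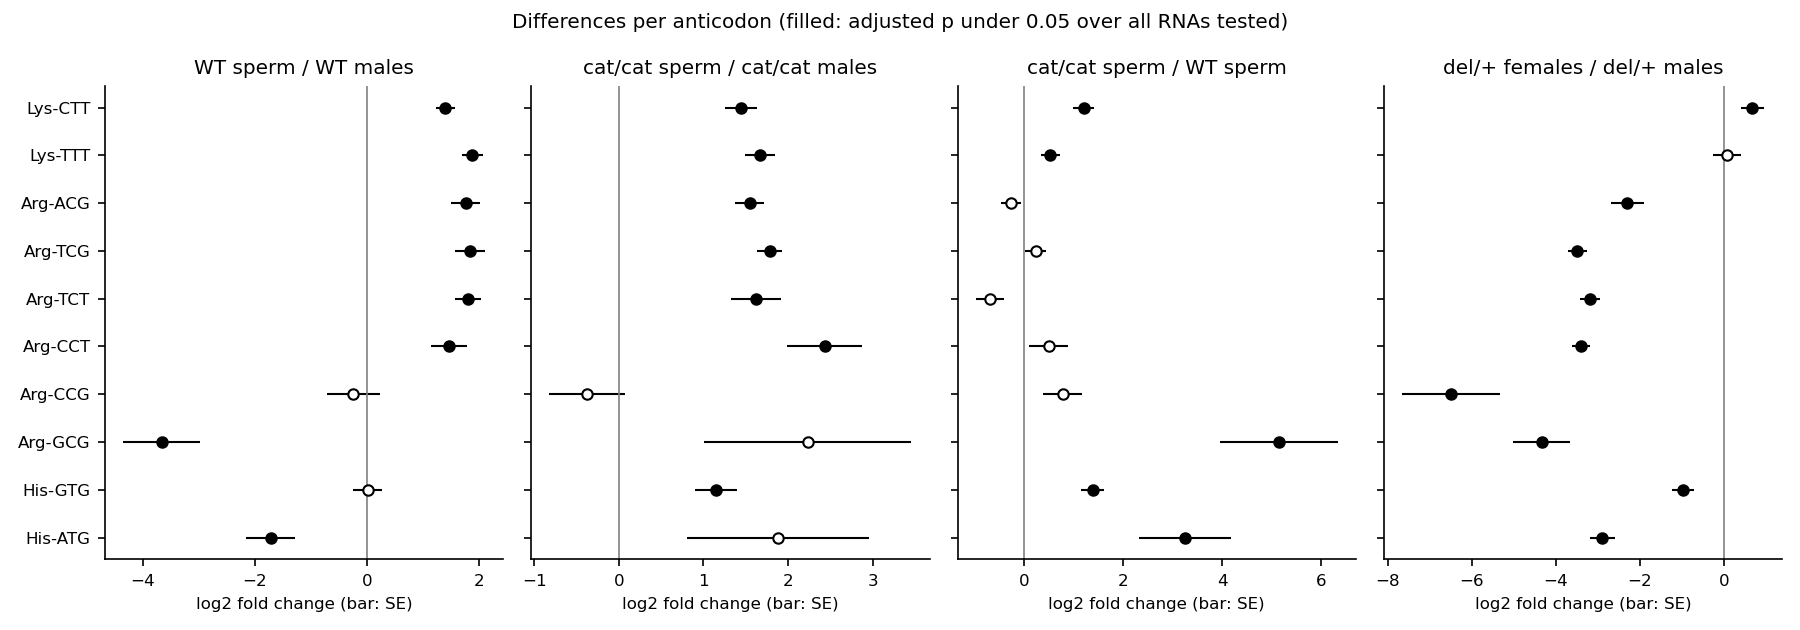
Log2 difference (x axis, with its SE) of each anticodon label in WT sperm against WT males, cat/cat sperm against cat/cat males, cat/cat sperm against WT sperm, and ∆/+ females against ∆/+ males; filled points have an adjusted p under 0.05. The first comparison is in CPM of all counts, the second and the third without rRNA, the last without rRNA and piRNA; in the first, the Lys labels, Arg-ACG, Arg-TCG, Arg-TCT and Arg-CCT lie between 1.40 and 1.88 but below 0 when scaled to tRNA counts, in the third, Lys-TTT and Arg-TCG are above 0 but fall below it when rRNA counts enter the library size, and in the last every Arg label is at or below −2.30.

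The sums hide genes that moved apart. With the tRNA genes kept separate, 188 of the 190 were tested between WT sperm and WT males, and 82 were higher and 55 lower, where 32.1% and 33.1% of all RNAs were. Genes of identical sequence can draw on the same reads, so that these and later counts of genes are not of independent observations. A gene could also meet the filter on counts through a single group, and such genes were not set apart. Lys-CTT had 27 genes higher and 17 lower of 67, so that the median over its genes was −0.33 while its sum rose. Lys-TTT had 15 of 18 higher and 1 lower, Arg-ACG 18 of 21 higher and 2 lower, Arg-TCG 8 higher and 5 lower of 14 tested, and His-GTG 4 higher and 5 lower of 26. Of the 24 His-ATG genes tested, 19 were lower and 0 higher.

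The most and the least counted gene of each label in WT males show how far genes of 1 label can part. The highest Lys-CTT gene (chrX_trna180, 505.5 ± 48.2 counts, SD, n = 4) rose by 1.40 ± 0.19 (edgeR adjusted p = 4.3e-05). The highest Arg-TCG gene, chrIII_trna89 (794.5 ± 508 counts), fell by 2.00 ± 0.55 on the log2 scale (edgeR adjusted p = 0.0063) while the sum of its label rose. Its count spread more between the WT male libraries than that of chrX_trna180. The highest Arg-CCT gene, chrX_trna119 (567 ± 167 counts), rose by 1.71 ± 0.33 (edgeR adjusted p = 0.00052), and the lowest, chrX_trna11 (57.0 ± 55.0 counts), fell by 3.13 ± 0.73 (edgeR adjusted p = 0.0021). Both Arg-GCG genes were lower in sperm, chrIII_trna57 at −3.81 ± 0.65 and chrIII_trna14 at −3.45 ± 0.79. Of the histidine genes neither the highest His-GTG gene, chrIV_trna34 (−0.41 ± 0.26), nor the highest His-ATG gene, chrV_trna81 (−0.54 ± 0.46), passed. Genes under 0.1 of the mean count of the highest gene of their label were few, 2 of Lys-CTT and 4 of Arg-TCG.

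Many genes of a label had counts that agreed within sampling noise over all 45 libraries. Linking such genes gave 14 sets with 127 genes, chosen after their values were seen and described without a test, and the genes in a set are no independent observations. Of the sets, 9 (62 genes) equal a set of identical annotated copies in number and chromosomes, among them the 11-gene and 4-gene His-GTG sets of the versions printed above. The main Lys-CTT set of 25 genes, matched in number and chromosomes by a single annotated sequence, held 85.4% of the Lys-CTT counts. It was at 713, 656, 711 and 393 CPM in WT males and at 1838, 2532, 2056 and 1644 in WT sperm, so that the sum of Lys-CTT follows it. A set of 15 Lys-CTT genes with 3.50% of the counts went the other way, with overlap, from 117, 117, 79.6 and 103 to 80.3, 53.7, 67.8 and 68.4, and a set of 21 genes with 2.75% lay at 56.5 to 97.6 in males and 41.6 to 58.3 in sperm. These were matched by no set of identical annotated copies.

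Sets of arginine genes matched by annotated sequences that differ by few bases also differed in size of change. The 4-gene Arg-TCG set, with 70.9% of the counts of its label, had log2 differences of 2.40 to 2.45 between WT sperm and WT males, and the 3-gene set on the X chromosome, which matches the printed Arg-TCG version 2, had 1.48 to 1.69. The annotated sequences that match these sets in number and chromosomes differ at C27T, G59T and T60C. The 5-gene and 2-gene Arg-TCT sets, whose matching annotated sequences differ at G59C, had 2.05 to 2.21 and 0.88 to 1.12. In His-GTG the 11-gene set lay at 0.73 to 1.08, with 4 of its genes passing, and went from 59.5, 35.02, 15.5 and 16.9 CPM in males to 39.5, 78.7, 54.6 and 61.0 in sperm, while the 4-gene set, at 26.6 to 41.4 in both groups, lay at −0.30 to −0.09 with no gene passing.

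**Figure D3:**
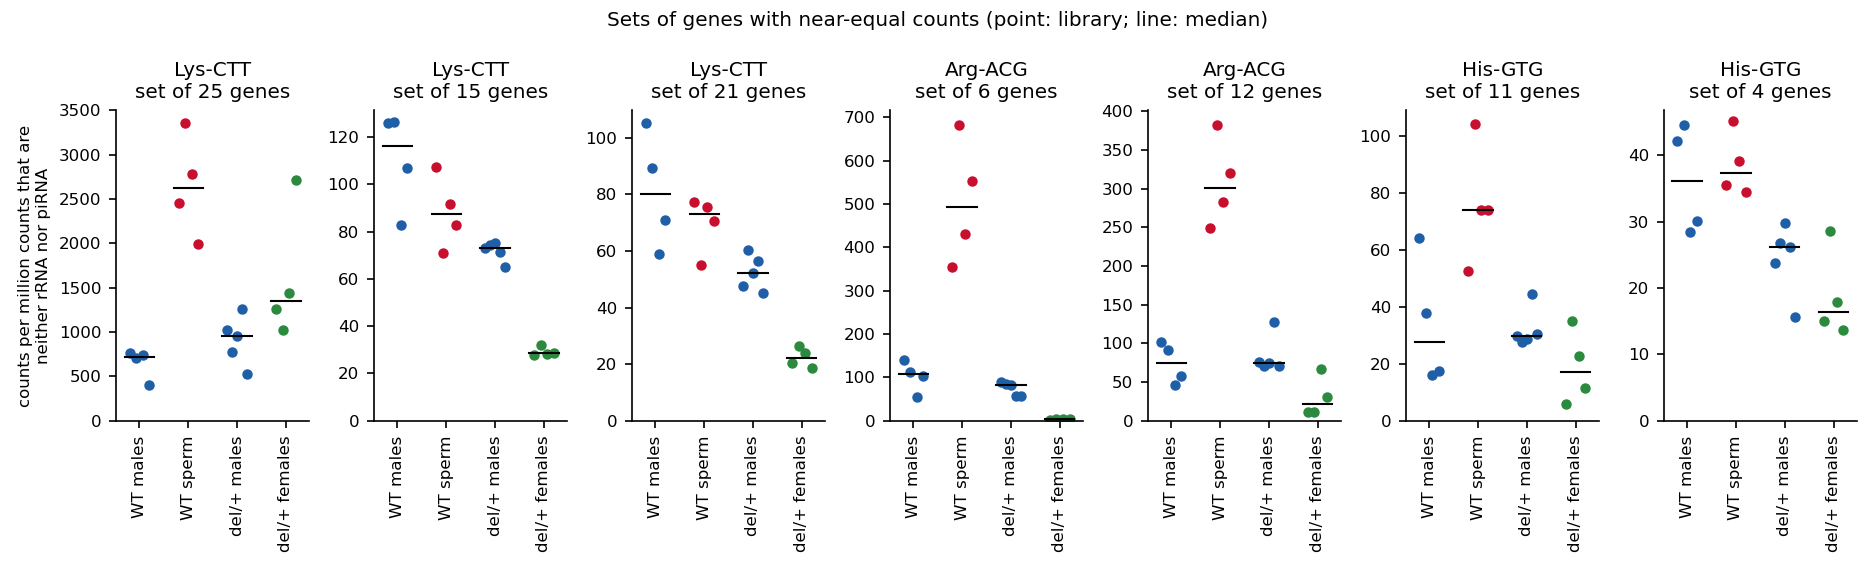
CPM of the counts that are neither rRNA nor piRNA (linear axis from 0) of 7 sets of genes with counts agreeing within sampling noise, in WT males, WT sperm, ∆/+ males and ∆/+ females; points are libraries. The 25-gene Lys-CTT set is higher in sperm than in WT males, and in females it has a higher median than in ∆/+ males, with overlap. The 15-gene Lys-CTT set overlaps between WT males and sperm and is lower in females than in ∆/+ males. The Arg sets are high in sperm and lower in females than in ∆/+ males.

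Sperm with the catalytic allele was then compared with males of the same genotype and with WT sperm. WT sperm lacks the tag on RNST-2, is another set of libraries and came from cultures that the study held to a higher share of males. These and the allele cannot be told apart. Against the cat/cat males listed with the sperm, in CPM without rRNA, 7 of the 10 labels were higher in cat/cat sperm, where 33.9% of all RNAs were. These were both Lys labels, Arg-ACG, Arg-TCG, Arg-TCT, Arg-CCT and His-GTG, with log2 differences of 1.15 to 2.43, and the median of the 10 labels was 1.64, against 1.48 over 48 other labels (32 higher and 4 lower) and −0.23 over all RNAs. Lys-TTT was at 318, 339 and 288 in these males and at 861, 963, 1260 and 910 in sperm (1.67 ± 0.17, edgeR adjusted p = 2.7e-05). Arg-TCG was at 558, 542 and 481 and at 1681, 1923, 1942 and 1706 (1.78 ± 0.15, edgeR adjusted p = 6.3e-06). Lys-CTT, at 2532, 2552 and 2500 in males, reached 5339, 6540, 8883 and 6737 in sperm (1.44 ± 0.19, edgeR adjusted p = 9.8e-05). The 3 male libraries lay close together for each of these labels, but stood apart from the 6 other cat/cat male libraries. Their fragments of the 17 sperm genes were at 382 to 571 CPM without rRNA, against 68.7 to 200 in those 6. Their tRNA genes took 12.9% to 14.5% of all counts, against 6.19% to 9.87%. The part of this in the differences was not tested. Arg-ACG was at 233, 251 and 208 and at 613, 615, 855 and 612 (1.55 ± 0.18, edgeR adjusted p = 4.2e-05). His-GTG was at 175, 197 and 194 in cat/cat males and 346, 318, 658 and 352 in cat/cat sperm (1.15 ± 0.25, edgeR adjusted p = 0.00204). None of these groups overlapped. Arg-CCT had the largest log2 difference of the labels that passed, 2.43 ± 0.44 (5.40-fold, edgeR adjusted p = 0.000613), and 1.81 (3.50-fold) without cat/cat sperm replicate 3. Without that library Arg-CCG (−0.996), Arg-GCG (−0.99) and His-ATG (−0.80) passed as lower, where with it Arg-GCG was at 2.23 and His-ATG at 1.88, neither passing. With rRNA in the library size Lys-CTT (0.42), Arg-TCT (0.57) and His-GTG (0.11) no longer passed as higher and Arg-CCG (−1.44) passed as lower.

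Against WT sperm, which also served in the first comparison, the same cat/cat sperm libraries had higher fragments of Lys-CTT, Lys-TTT, Arg-GCG, His-GTG and His-ATG in CPM without rRNA, 5 of the 10 labels where 31.8% of all RNAs rose, and no label passed as lower. The median over the 10 was 0.65, against 0.69 over 47 other labels (21 higher and 6 lower) and 0.02 over all RNAs. Lys-CTT was at 2804, 3715, 3130 and 2284 in WT sperm and at 5339, 6540, 8883 and 6737 in cat/cat sperm, 2.30-fold higher without overlap (log2 1.20 ± 0.21, edgeR adjusted p = 0.000476). His-GTG was at 134, 191, 166 and 152 and at 346, 318, 658 and 352, 2.61-fold higher (1.38 ± 0.23, edgeR adjusted p = 0.000394). Lys-TTT, at 501, 789, 679 and 799 against 861, 963, 1260 and 910, was 1.44-fold higher (0.53 ± 0.19, edgeR adjusted p = 0.0312). That call was lost without WT sperm replicate 1 (0.40) or 3 (0.52), or cat/cat sperm replicate 2 (0.55) or 3 (0.40), and with rRNA in the library size Lys-TTT was lower, at −0.61. Other RNAs moved between these groups as well, on the same CPM without rRNA. Fragments of the 17 sperm genes were at 115 to 183 in WT sperm and 678 to 817 in cat/cat sperm, those of the vitellogenin genes at 59.6 to 227 and 584 to 782, and mir-35 to mir-42 at 108 to 378 and 628 to 2346. Their part in these differences was not tested.

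With the genes kept apart, 30 of the 67 Lys-CTT genes were higher and 28 lower in cat/cat sperm, where 32.1% and 23.3% of all RNAs were, and the median over the genes was −0.68 while the sum rose. Of the 30, 25 form the main Lys-CTT set, which a single annotated sequence matches in number and chromosomes. By DESeq2, Lys-CTT (1.11) and His-GTG (1.302) passed as higher and Arg-TCT (−0.77) as lower, Lys-TTT (0.45) did not pass, and Arg-GCG and His-ATG had no adjusted p.

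The arginine labels of sperm showed no common rise. Arg-ACG was at 601, 1061, 707 and 869 in WT sperm and 613, 615, 855 and 612 in cat/cat sperm (log2 −0.26, edgeR adjusted p = 0.271). Arg-TCT was at 313, 672, 440 and 552 against 247, 248, 513 and 217 (−0.69 ± 0.29, edgeR adjusted p = 0.0589), and it passed as lower without cat/cat sperm replicate 3 (−1.06) or WT sperm replicate 1 (−0.86) and with the replicate number as a block (−0.73). Arg-TCG had a log2 difference of 0.23 (edgeR adjusted p = 0.370), which turned to −0.89 and passed as lower with rRNA in the library size. Of the left-out libraries, only cat/cat sperm replicate 1 brought Arg-CCG past the test as higher (1.001). With rRNA in the library size Arg-ACG (−1.40) and Arg-TCT (−1.85) passed as lower too, Lys-CTT (0.08) and His-GTG (0.24) no longer passed, and the median of all RNAs was −1.08.

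Arg-GCG and His-ATG in cat/cat sperm rested largely on 1 library. Arg-GCG was at 0.298, 0.208, 1.50 and 1.45 CPM in WT sperm and at 4.38, 3.60, 122 and 2.63 in cat/cat sperm, and His-ATG at 26.5, 32.7, 45.3 and 47.9 against 56.4, 65.8, 1277 and 47.8. Replicate 3 carried the values of 122 and 1277. Arg-GCG met the filter on counts through the cat/cat sperm alone. With it the log2 differences were 5.15 ± 1.19 (edgeR adjusted p = 0.00297) and 3.25 ± 0.93 (edgeR adjusted p = 0.0106). Without it they were 1.92 (3.78-fold) and 0.57 (1.48-fold, edgeR adjusted p = 0.0378), still higher, and Lys-CTT and His-GTG were at 1.06 and 1.08. Of the highest Arg-GCG gene, chrIII_trna57, the log2 difference was 6.04.

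Whether the difference between sperm and males itself differed between cat/cat and WT was tested as an interaction. The tag and the set of libraries differ along with the allele here too, and the cat/cat males are those listed with the sperm. In CPM without rRNA, Arg-GCG was the only label of the 10 that passed, with the sperm-minus-male difference 5.62 ± 1.51 higher in cat/cat than in WT on the log2 scale (edgeR adjusted p = 0.0185), where 3.78% of all RNAs passed as higher. It did not pass without cat/cat sperm replicate 3 (2.39), without replicate 1 (5.37) or 3 (5.70) of the cat/cat males listed with the sperm, nor with the replicate number as a block (3.92). His-ATG was at 3.32 ± 1.20 (edgeR adjusted p = 0.0762) and passed without cat/cat sperm replicate 1 (3.68) or 4 (3.69), His-GTG at 0.84 (edgeR adjusted p = 0.182) and Lys-TTT at −0.50 (edgeR adjusted p = 0.216). The median over the 10 was −0.31, against −0.44 over 48 other labels, of which 3 passed as higher and 8 as lower. These calls depended on the scale. With rRNA in the library size 6 labels passed, Arg-GCG as higher (4.74) and Lys-CTT (−0.98), Lys-TTT (−1.24), Arg-ACG (−1.23), Arg-TCG (−1.08) and Arg-TCT (−1.23) as lower, whereas scaled to tRNA counts all 10 passed as higher.

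In whole males, loss of RNST-2 left the 10 labels without a call. Between ∆/∆ and ∆/+ males edgeR called 0 of the 10, 0 also at an unadjusted p under 0.05, where 13.4% of all 15133 RNAs passed in either direction, and DESeq2 called 3 as higher, Arg-ACG (0.70), Arg-CCT (0.53) and Arg-TCG (0.76). The share of all RNAs that passed depended on rRNA, which took 18.3% to 25.5% of the counts in ∆/∆ males and 3.55% to 5.47% in ∆/+ males. With rRNA out of the library size, calls over all RNAs went from 197 higher and 1825 lower to 148 and 89. The calls of the 10 labels did not change. Lys-CTT was at 685, 1109 and 1429 CPM of all counts (lowest, median and highest) in ∆/+ males and ran from 602 to 1699 in ∆/∆ males. Arg-TCG was at 261, 227, 209, 175 and 189 in ∆/+ and from 218 to 312 in ∆/∆ males (log2 0.31, edgeR adjusted p = 0.247). His-GTG was at 101, 86.9, 102, 132 and 101 in ∆/+ and from 64.4 to 131 in ∆/∆ males, with a log2 difference of 0.00. The groups overlapped for each of these labels. The median log2 difference over the 10 labels was 0.10 and over 47 other labels 0.41, of which 15 passed as higher and 0 as lower, while all RNAs had a median of −0.39. Arg-CCG, at −1.49 ± 0.84 (edgeR adjusted p = 0.280), was at 229 in ∆/+ male replicate 1 and at 9.08 to 18.7 in the other ∆/+ males. Without replicate 1 its log2 difference was 0.56 (edgeR adjusted p = 0.642).

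Males with the catalytic allele gave the same count. Between cat/cat and cat/+ males edgeR called 0 of the 10, where 12.1% of all 16248 RNAs passed in either direction, with 2 at an unadjusted p under 0.05, Arg-GCG (−1.14 ± 0.51, p = 0.0392) and His-ATG (−0.87 ± 0.35, p = 0.0232). DESeq2 called Arg-TCG higher (0.76). rRNA fragments took 21.2% to 26.9% of the counts in cat/cat males and 3.90% to 5.72% in cat/+ males. With rRNA out of the library size, calls over all RNAs went from 172 higher and 1791 lower to 89 and 6. The calls of the 10 labels did not change. His-ATG was at 256, 121, 58.8, 92.7 and 126 CPM in cat/+ males and from 38.1 to 105 in cat/cat males, with overlap. Without cat/+ male replicate 4, which was the lowest of its group for Lys-CTT, Lys-TTT, Arg-ACG, Arg-TCT, Arg-CCG and Arg-GCG, both Arg-GCG (−1.36, edgeR adjusted p = 0.0218) and His-ATG (−0.98, edgeR adjusted p = 0.0479) passed as lower. The other labels lay between −0.56 and 0.40, with Lys-CTT at 963, 1361, 1338, 514 and 1147 in cat/+ and from 969 to 1781 in cat/cat males, and Arg-TCG at 238, 270, 212, 290 and 287 against 218 to 378. The difference between the effects of the alleles ranged from −0.82 to 0.93 over the 10 labels, and edgeR called 0 of them, 0 also at an unadjusted p under 0.05 and 0 by DESeq2, as it called 0% of all RNAs. The highest of these, that of Arg-CCG, was −1.12 without ∆/+ male replicate 1.

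Labels outside the 3 amino acids did move in these males. Gly-GCC, whose fragments are abundant in sperm of many animals, was higher by 2.83 on the log2 scale in ∆/∆ males and by 2.64 in cat/cat males, and Glu-CTC by 1.54 and 1.17, each passing the test. As a share of all tRNA counts, the 190 genes took 5.09% to 7.83% in ∆/+ males and 1.93% to 3.64% in ∆/∆ males, without overlap, and 2.96% to 8.34% in cat/+ against 1.97% to 3.77% in cat/cat males, which overlapped. Scaled to tRNA counts, all 10 labels passed as lower in ∆/∆ males and 7 in cat/cat males.

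Females were set beside males within the ∆/+ genotype, in CPM without rRNA and piRNA. The sexes were sequenced as different sets of libraries, so that sex and set cannot be told apart, and the ∆/+ males are those of the comparison above. Arg-ACG, Arg-TCG, Arg-TCT and Arg-CCT were lower in females, by 4.93-fold for Arg-ACG to 11.2-fold for Arg-TCG, whereas Lys-TTT did not pass. Lys-CTT was higher, in a call that leaving out single libraries removed. Arg-CCG (89.9-fold) and Arg-GCG were lower too, but met the filter on counts through the males alone. Their calls lend no support of their own. The fall of Arg-CCG was smaller, at −4.41 on the log2 scale, without ∆/+ male replicate 1. In all, 8 of the 10 labels were lower, with Arg-CCG and Arg-GCG among them, where 28.2% of all RNAs were. Of the 10, 1 was higher, where 37.4% were. The medians were −3.04 over the 10 labels, −2.69 over 46 other labels (42 lower and 0 higher) and 0.45 over all RNAs.

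Arg-TCG was at 275, 239, 223, 187 and 198 in ∆/+ males and at 15.2, 23.9, 24.3 and 16.7 in ∆/+ females, 11.2-fold lower (log2 −3.49 ± 0.23, edgeR adjusted p = 4.6e-09). Arg-CCT was at 59.6, 55.9, 69.1, 68.2 and 74.1 against 5.10, 7.52, 6.04 and 5.92, 10.6-fold lower (−3.41 ± 0.22, edgeR adjusted p = 3.4e-09). Arg-TCT was at 110, 83.8, 75.4, 61.5 and 58.2 against 7.70, 9.08, 9.24 and 8.06 (−3.19 ± 0.24, edgeR adjusted p = 2.2e-08). In none of these labels did a female library reach the range of the males. Arg-ACG, at 177, 163, 168, 215 and 147 against 15.6, 17.4, 72.8 and 35.9, fell by 2.30 ± 0.39 (edgeR adjusted p = 0.000112). These labels had few counts in females, 6, 17, 5 and 2 for Arg-CCG and 7, 6, 7 and 1 for Arg-GCG, and their log2 differences were −6.49 ± 1.17 (edgeR adjusted p = 0.000197) and −4.34 ± 0.67 (edgeR adjusted p = 4.8e-05). Without ∆/+ male replicate 1 that of Arg-CCG was −4.41 ± 0.60.

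Of the lysine and histidine labels 1 was higher, 2 were lower and 1 did not pass. Lys-CTT was at 1251, 994, 1178, 1524 and 717 in males and 1416, 1182, 1630 and 2991 in females, which overlapped, with a log2 difference of 0.67 ± 0.27 (edgeR adjusted p = 0.0408). That call was lost without ∆/+ male replicate 1 (0.71), 2 (0.63), 3 (0.69) or 5 (0.55) or ∆/+ female replicate 3 (0.72) or 4 (0.31), and under TMM scaling (0.24), DESeq2 (0.33) and the replicate block (0.47). Lys-TTT, at 150, 135, 130, 62.2 and 51.5 against 99.4, 75.98, 90.6 and 176, gave 0.06 ± 0.33 (edgeR adjusted p = 0.879). His-GTG was 1.97-fold lower in females (−0.97 ± 0.26, edgeR adjusted p = 0.00373), at 106, 91.5, 109, 141 and 106 against 35.7, 87.9, 60.2 and 41.2. His-ATG was 7.44-fold lower (−2.90 ± 0.30, edgeR adjusted p = 8.4e-07), at 106, 52.8, 85.6, 145 and 136 against 10.9, 18.2, 13.3 and 13.97. Neither histidine label overlapped between the sexes.

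Gene by gene, 182 of the 190 were tested between the sexes and 26 were higher and 99 lower in ∆/+ females, where 36.1% and 30.3% of all RNAs were. Genes could meet the filter on counts through the males alone, and how many of the 99 did was not counted. The 99 calls therefore lend no support of their own. All 26 that were higher carry the label Lys-CTT, which also had 23 lower. Of the 26, 24 belong to the 25-gene set, which a single annotated sequence matches in number and chromosomes, and are no independent observations. The 25-gene Lys-CTT set was at 1028, 774, 955, 1261 and 526.4 in males and 1260, 1027, 1446 and 2710 in females, while the 15-gene set fell from 72.9, 74.3, 75.4, 71.4 and 65.2 to 28.03, 32.1, 28.2 and 28.8. No Arg gene was higher. The 6-gene Arg-ACG set went from 89.2, 84.2, 82.6, 56.6 and 56.9 to 1.65, 3.76, 3.70 and 3.65, and the 12-gene set on the X chromosome from 75.8, 71.4, 74.6, 128 and 70.4 to 12.01, 10.8, 66.6 and 30.3. The main annotated sequences of the Arg-ACG label differ at T50C between the version with 10 copies on the X chromosome and that with 6 copies. In His-GTG 7 of 25 genes were lower and 0 higher, and the highest of them in WT males, chrIV_trna34, was at −0.56 ± 0.33 (edgeR adjusted p = 0.148). The highest His-ATG gene, chrV_trna81, fell by 3.95 ± 0.84 (edgeR adjusted p = 0.00087), and of the highest Arg genes chrIII_trna79 (Arg-ACG) fell by 4.40 ± 0.53 and chrIII_trna89 (Arg-TCG) by 2.08 ± 0.48.

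Loss of RNST-2 in females moved none of the labels past the test. Between ∆/∆ and ∆/+ females edgeR called 0 of the 9 labels tested, 0 also at an unadjusted p under 0.05 and 0 by DESeq2, where 0.0203% of all 14748 RNAs passed in either direction. The log2 differences ran from −0.28 for His-GTG to 0.94 for Arg-CCG, each with an edgeR adjusted p of 0.9999, and Arg-GCG had too few counts to test. Lys-CTT was at 1301, 3724, 1277 and 1413 in ∆/∆ females and Arg-TCG at 25.7, 25.3, 26.99 and 21.1, both overlapping the ∆/+ females. The effect of the deletion in males minus that in females ranged from −2.10 for Arg-CCG to 0.57, and edgeR called 0 of the labels, 0 also at an unadjusted p under 0.05 and 0 by DESeq2, where 0.129% of all RNAs passed. The value of Arg-CCG was −0.06 without ∆/+ male replicate 1. This test uses the ∆/+ males and ∆/+ females of the comparisons above.

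The ratio of lysine to arginine counts puts the sexes and sperm on 1 scale that does not depend on the library size. It was 1.20 to 2.34 in WT males and 0.949 to 1.56 in WT sperm, with medians of 1.21 and 1.17, and 1.10 to 3.12 over the cat/+, cat/cat, ∆/+ and ∆/∆ males. Cat/cat sperm was at 2.16 to 2.75, above every WT sperm library, and the cat/cat males listed with it at 2.74 to 3.09. Females were at 15.1 to 47.3 (∆/+, median 27.6) and 12.6 to 31.7 (∆/∆, median 24.3). No library of males or sperm reached the lowest female library, and the ∆/+ and ∆/∆ females overlapped. The ratio is of counts, not per length, and is given without a test.

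**Figure D4:**
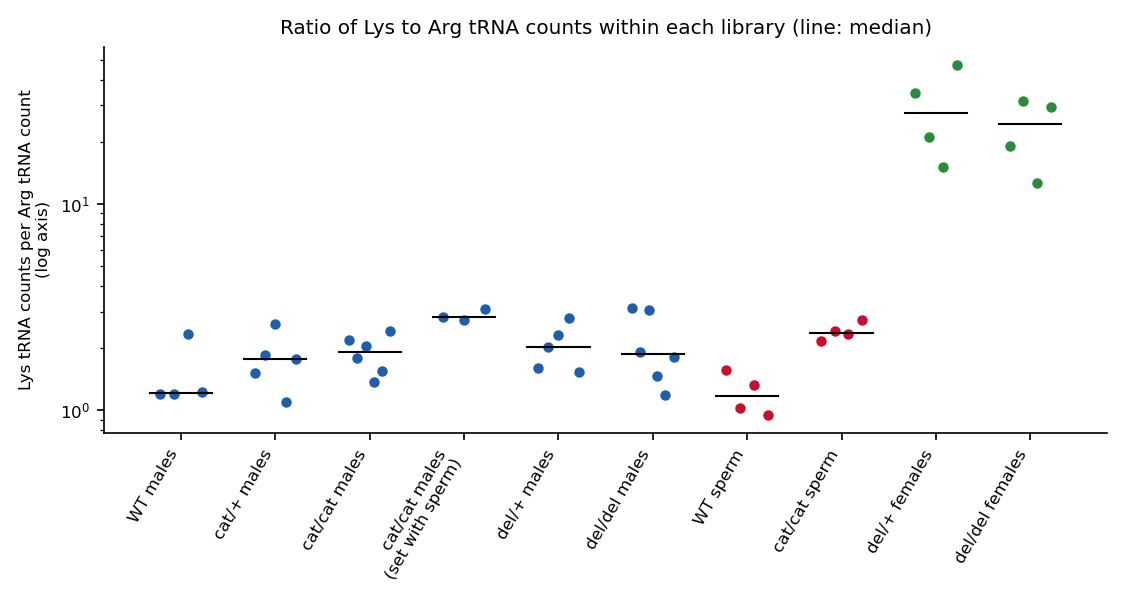
Counts of lysine tRNA fragments per count of arginine tRNA fragments (log axis) in each of the 45 libraries by group; the line is the group median. The 8 female libraries lie between 12.6 and 47.3 and all others between 0.949 and 3.12.

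Genes for synthetases of the 3 amino acids gave a reading that is independent of the member rule. kars-1, rars-1, rars-2 and hars-1 encode lysyl-, arginyl- and histidyl-tRNA synthetases, and each gave sense mRNA fragments and antisense endo-siRNAs. In WT sperm against WT males the mRNA fragments of all 4 were higher, by 4.41, 3.17, 3.18 and 3.83 on the log2 scale, and the endo-siRNAs lower, at −2.18, −1.47, −0.56 and −2.35. Most RNAs of these classes moved the same way, 64.5% of all mRNA fragments tested being higher and 58.8% of all endo-siRNAs lower. kars-1 mRNA fragments were at 0.0717 to 0.861 CPM in males and 9.90 to 16.7 in sperm, and its endo-siRNAs at 12.3 to 27.4 and 3.79 to 4.31. Neither overlapped. Cat/cat sperm was set against WT sperm in CPM without rRNA. There the mRNA fragments of kars-1 (0.80), rars-1 (0.80) and hars-1 (1.01) were higher, where 61.1% of all mRNA fragments were. Those of rars-2 (0.51) did not pass. The endo-siRNAs of all 4 were lower in cat/cat sperm, from −1.18 to −0.59, where 39.1% of all endo-siRNAs were. The endo-siRNAs of kars-1 (−0.81), rars-1 (−0.79) and hars-1 (−0.56) were lower in ∆/∆ males, where 17.9% were. Those of kars-1 (−1.15) were lower in cat/cat males, where 17% were. These calls in males are in CPM of all counts. With rRNA out of the library size, lower calls over all RNAs went from 1825 to 89 for the deletion and from 1791 to 6 for the catalytic allele. The calls of these genes on that scale are not given here. In ∆/+ females against ∆/+ males the mRNA fragments of kars-1 (1.71) and rars-1 (2.36) and the endo-siRNAs of hars-1 (0.53) were higher, where 21.4% of all mRNA fragments and 44.2% of all endo-siRNAs were.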

How the data were processed

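The authors trimmed reads with Trimmomatic, aligned them with Bowtie2 in turn to rRNA, miRNA, tRNA and piRNA sequences and the rest with STAR to the genome, and counted sense reads as mRNA fragments and antisense reads as endo-siRNAs with featureCounts. The submitters' processing notes also name RSEM, and versions are not given in the sources used here. The deposited values are raw counts per RNA, and how reads with several equal matches were assigned among identical tRNA genes is not given in the sources used here. 1 per-sample column matched no sample and was not used. In the table of females 30036 piRNA rows hold an extra value, so piRNA counts were left out of comparisons with females. The 4 WT sperm columns are identical in both tables that hold them and were used once. Deposited tables of normalized values and of the authors' own comparisons were not used.

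Counts of tRNA genes were summed by anticodon label. An RNA was tested when it reached 10 counts in a number of libraries no lower than the size of the smaller group, using the quasi-likelihood test of edgeR 4.0.16 (R 4.3.3) with the library sizes given in the report, Benjamini-Hochberg adjustment over all RNAs tested and a threshold of 0.05. Each comparison was fitted on its own groups. Alternatives were library sizes with or without rRNA or of tRNA counts alone, TMM factors, DESeq2 1.42.0, no filter, tRNA genes kept apart, the replicate number as a block and leaving out each library. The fits were tested on simulated data. Sums, levels and sets came from scripts in Python 3.11.15 (pandas 2.3.3, scipy 1.17.1 and numpy 2.4.6).

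Named genes are, for each label, those with the highest and the lowest mean count in WT males. Genes were linked into sets where counts over the 45 libraries, with a sum of at least 200, gave a chi-square p over 0.001. Same-numbered libraries deviated together in every pair (correlation over 0.1) only between ∆/∆ and ∆/+ males, at 0.185 to 0.439 over 5 pairs, so the numbers were taken to pair these. Replicates all differed beyond sampling noise. The members and lists were chosen with earlier results of these data known. Sequences are from RefSeq, WBcel235.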

Additional observations from a re-analysis of the deposited data

Results flagged for a closer look

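Of 90 sets of 4 to 6 libraries of 1 label, 13 held a library whose gap to the nearest other was large for the range of the group, where a rate of 1 in 20 gives 4.5. All values are counts per 1000000 of all counts (CPM). In cat/cat sperm replicate 3 was apart for Arg-TCT (163 against 82.3 to 94.8), Arg-CCT (268 against 90.4 to 117), Arg-GCG (38.7 against 1.09 to 1.68) and His-ATG (405 against 19.8 to 21.9). In ∆/∆ females replicate 2 was apart for Lys-CTT (3485 against 1225 to 1358) and Lys-TTT (178 against 85.5 to 92.8). In cat/cat males replicate 6 stood apart for Lys-CTT (1781 against 969 to 1260) and Arg-CCG (81.6 against 10.4 to 35.5), and replicate 4 for Arg-ACG (353 against 194 to 231). In cat/+ males replicate 4 was low for Arg-TCT (15.7 against 87.0 to 105) and replicate 1 high for Arg-GCG (34.4 against 4.50 to 11.9). ∆/+ male replicate 1 was high for Arg-CCG (229 against 9.08 to 18.7) and ∆/∆ male replicate 3 for His-ATG (246 against 32.1 to 101).

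The difference between sperm and males differed by genotype for Arg-GCG, by 5.62 on the log2 scale in cat/cat against WT (edgeR adjusted p = 0.0185). It was 2.39 and did not pass without cat/cat sperm replicate 3.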

How the results depend on the processing

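Values are log2 differences, and counts are of the 10 labels called. Scaled to tRNA counts, WT sperm against WT males called 5, with Lys-CTT −0.61, Lys-TTT −0.14, Arg-ACG −0.23, Arg-TCG −0.16, Arg-TCT −0.24, Arg-CCT −0.55 and His-GTG −1.94. On that scale ∆/∆ against ∆/+ males called 10, with Lys-CTT −1.27, Lys-TTT −1.05, Arg-ACG −1.21, Arg-TCG −1.08, Arg-TCT −1.26, Arg-CCT −1.37 and His-GTG −1.43, cat/cat against cat/+ males called 7, with Lys-CTT −0.99, Arg-TCG −0.99 and His-GTG −1.02, and the sperm-minus-male interaction called 10, with Lys-CTT 1.78, Lys-TTT 1.54, Arg-ACG 1.52, Arg-TCG 1.68, Arg-TCT 1.58 and Arg-CCG 1.52. With rRNA in the library size the interaction called 6, and in cat/cat against WT sperm Lys-TTT was −0.61 and Arg-TCG −0.89. With genes kept apart, medians over genes were −0.33 for Lys-CTT and −2.47 for Arg-CCT in WT sperm against WT males, −0.68 for Lys-CTT in cat/cat against WT sperm and −1.04 for Lys-CTT in ∆/+ females against ∆/+ males, and the interaction called 0. DESeq2 called 3 in ∆ males, 1 in cat males, 3 in cat/cat against WT sperm and 2 in the interaction, and gave no adjusted p for Arg-GCG and His-ATG in both comparisons of cat/cat sperm and for Arg-CCG between the sexes. TMM factors called 1 in ∆ males. With no filter 1 was called in ∆ males, 1 in the effect of the deletion in males minus females and 3 in the interaction. In cat/cat sperm against WT sperm and against cat/cat males, 2 labels each passed in addition with no filter.

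Leaving out each library gave 0 to 2 calls in cat males and in the interaction, and in cat/cat sperm against cat/cat males −0.99 to 2.63 for Arg-GCG and −0.80 to 2.25 for His-ATG, both lowest without cat/cat sperm replicate 3. The replicate block called 0 in the interaction (Arg-GCG 3.92), lost His-ATG in WT sperm against WT males (−1.44), where 7 labels passed, lost His-ATG (1.56) and called Arg-TCT lower (−0.73) in cat/cat against WT sperm, where 5 passed, and lost Lys-CTT between the sexes (0.47). In ∆ males, where the numbers pair libraries, it changed no label's call. In the other comparisons the libraries share only a number. Of 1859 values of single labels under the alternatives, 1751 kept their side of the threshold, 46 passed only there, 31 no longer passed and 31 turned direction.

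Over all RNAs, calls in ∆ males went from 197 higher and 1825 lower to 159 and 10 with TMM and 195 and 2989 with the block, in cat males from 172 and 1791 to 103 and 2 with TMM, in cat/cat against WT sperm from 7267 and 5439 to 1548 and 13277 with rRNA in the library size, in WT sperm against WT males from 7601 and 8214 to 9194 and 6326 with TMM, between the sexes from 5860 and 4416 to 4149 and 5113 with TMM, and in ∆ females from 3 and 0 to 83 and 12 with no filter. The cause was not tested. Depth limits Arg-GCG most, which had 1 to 15 counts in each female library.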
